A study of Mus musculus with 10 samples.

Results

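Pseudogene transcripts were examined in undifferentiated P19 cells, a mouse embryonal carcinoma line of wild-type genotype. The cells had received a control pool of scrambled siRNAs (siCtl) or an siRNA against Larp1 (siLarp1), whose product binds mRNAs with a 5′-terminal oligopyrimidine (TOP) motif. Cells were collected at 24 h, or at 48 h after a repeated transfection. The data comprised 3 siCtl and 3 siLarp1 libraries at 24 h (numbers 19, 21 and 22 in each treatment) and 2 siCtl and 2 siLarp1 libraries at 48 h (numbers 24 and 25), sequenced as native RNA on nanopores. A transcript was included when its annotation family held the word pseudogene, its symbol did not start with Rpl or Rps, and at least 1 of its alignments had a tail estimate of the quality tag PASS. This gave 291 transcripts of 290 genes among 28665 annotated transcripts with such an alignment. They held 9047 of 2132085 alignments. Reads were of native RNA and not of fragments, so alignments were not divided by transcript length. A read can carry more than 1 alignment, each to another transcript.

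A pseudogene is a sequence that resembles a gene and is annotated as unable to make the full protein. Most of those examined here matched a coding gene as copies, but not all. Processed pseudogenes arose when a spliced mRNA was copied back into the genome, and therefore lack introns, whereas unprocessed ones arose by duplication of DNA, including transfer of mitochondrial DNA into chromosomes. A young copy can differ from its parent gene at so few bases that a read cannot be placed between them. Mitochondrial mRNAs receive short poly(A) tails inside the organelle by a polymerase of their own, apart from the nuclear machinery that tails other mRNAs.

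The libraries held between 113389 and 425870 PASS alignments outside the mitochondrial genome, and 483 to 1876 on the pseudogene transcripts. Larp1 itself had 75.5, 83.7 and 84.5 RPM (alignments scaled to 1000000 PASS alignments outside the mitochondrial genome) in siCtl and 33.2, 44.5 and 18.99 in siLarp1 libraries at 24 h. At 48 h it had 168 and 122 in siCtl and 18.4 and 24.8 in siLarp1 libraries, so the groups did not overlap at either time. These values rested on 3 to 36 Larp1 reads per library. The pluripotency marker Pou5f1 lay between 2263 and 3011 RPM in every library. Of the other pluripotency markers Sox2, Utf1, Lin28a and Tdgf1 were read in every library, whereas Dppa5a had 8 reads in all. Among neuronal markers Neurod1 had no read and Map2 had 4, while Tubb3 had 99 and Stmn2 had 421. The siCtl and siLarp1 libraries of 24 h came from separate sequencing pools, and an effect of the pool cannot be told apart from one of the treatment. All 4 libraries of 48 h were in 1 pool.

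Most alignments fell on very few transcripts. Of the 291 transcripts, 166 had 1 alignment and 276 had fewer than 30, and these 276 held 702 alignments together. Only 15 transcripts reached 30 alignments, and these 15 were also the ones read in all 10 libraries. The transcripts in the reference annotation (278 of 291, GENCODE M21, build GRCm38) had a median length of 531.5 nt, and 233 of them had a single exon. A coding parent, the protein_coding transcript with the best match over at least 50% of the length and at least 80% identity, was found for 256. Identity to the parent had a median of 96.9% and ranged from 80.2% to 100.0%.

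The leading transcripts were 7 unprocessed pseudogenes that lie side by side on the minus strand of chromosome 1 (chr1:24611535-24616197). They held 6615 alignments, 73.1% of the total. Each copies a mitochondrial gene of the respiratory chain. Gm28437 copies mt-Co3 (cytochrome c oxidase subunit III) and had 2595 alignments. Gm10925 copies mt-Atp6 (ATP synthase subunit a) and had 2335. Gm29216 copies the last part of mt-Co1 and had 827, and Gm28661 copies mt-Co2 and had 675. Gm28439 copies the first part of mt-Nd4 and had 90, Gm28438 copies mt-Nd3 and had 83. Gm10222, the copy of mt-Nd4l, was the only one of the 7 with fewer than 30.

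The ends of the leading pair are shown because the annotated copies stop there while the mitochondrial genes run on. Gm28437 (783 nt) and Gm10925 (678 nt) had no mismatch to their parents over their whole lengths. The parents run on for a further 1 and 3 bases (784 and 681 nt). The last 30 bases of each copy, the same bases of its parent, and the window of 30 bases around the single difference of Gm29216 and of Gm28438 were as follows, with capitals at the base that differs.
Gm28437, chr1:24613189-24613218, minus strand: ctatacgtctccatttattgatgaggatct
mt-Co3, chrM:9360-9389, plus strand: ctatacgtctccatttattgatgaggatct
Gm10925, chr1:24613974-24614003, minus strand: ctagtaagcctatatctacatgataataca
mt-Atp6, chrM:8575-8604, plus strand: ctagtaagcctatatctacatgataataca
Gm29216, chr1:24616159-24616188, minus strand: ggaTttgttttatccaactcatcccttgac
mt-Co1, chrM:6390-6419, plus strand: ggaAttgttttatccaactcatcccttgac
Gm28438, chr1:24613090-24613119, minus strand: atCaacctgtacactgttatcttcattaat
mt-Nd3, chrM:9459-9488, plus strand: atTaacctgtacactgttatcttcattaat

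The second group of leading transcripts were processed pseudogenes of nuclear genes. Gm7336, a copy of Gapdh (a glycolytic enzyme), had 697 alignments. Mrpl23-ps1 copies Mrpl23, a protein of the mitochondrial ribosome, and had 248. Gm10240, Gm13370 and Gm10163 copy Rpl21, a protein of the large ribosomal subunit, and had 236, 236 and 82. Gm21596 copies Hmgb1, a chromatin protein, and had 78. Gm12421 (40 alignments) matched Rps6 over 216 of its 307 bases. The windows with most differences show how much less sequence separates Gm7336 and Gm10240 from their parents than separates Gm12421, again with capitals at the bases that differ. Over the whole alignment Gm7336 had 1 mismatch and 2 gap positions in 1232, Gm10240 had 2 mismatches in 483 and Gm12421 had 14 in 216.
Gm7336, chr7:51746647-51746676, plus strand: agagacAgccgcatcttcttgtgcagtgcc
Gapdh, bases 191 to 220 of the transcript: agagacGgccgcatcttcttgtgcagtgcc
Gm10240, chr15:68310139-68310168, plus strand: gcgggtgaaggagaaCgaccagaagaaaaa
Gm13370, chr2:24986304-24986333, plus strand: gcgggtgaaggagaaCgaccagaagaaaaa
Gm10163, chr9:88391157-88391186, plus strand: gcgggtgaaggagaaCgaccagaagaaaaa
Rpl21, bases 615 to 644 of the transcript: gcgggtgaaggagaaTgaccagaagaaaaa
Gm12421, chr4:84428975-84429004, minus strand: acAccAaTAtattgctctgaagaaAcaGTg
Rps6, bases 650 to 679 of the transcript: acGccGaCGtattgctctgaagaaGcaACg

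**Figure D1:**
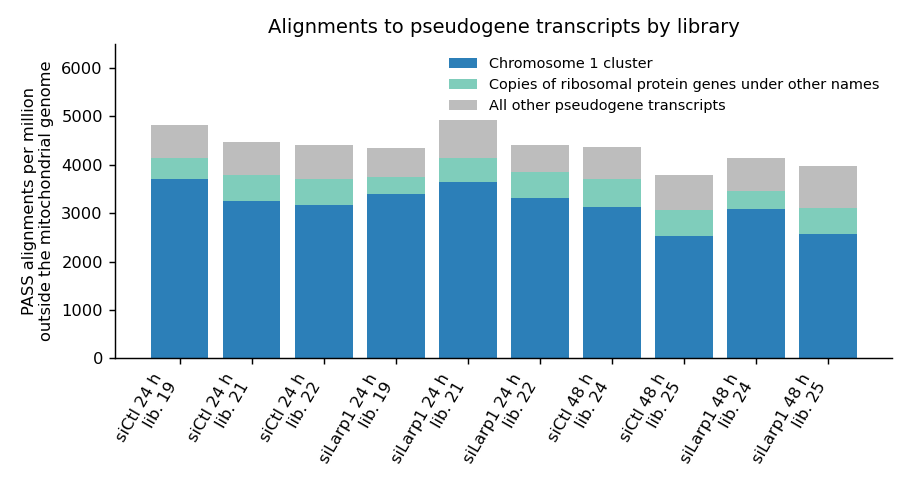
Stacked bars give PASS alignments to pseudogene transcripts in RPM (vertical axis) in each of the 10 libraries (horizontal axis, treatment, time and library number), split into the chromosome 1 cluster, copies of ribosomal protein genes with symbols other than Rpl or Rps, and all others. The cluster made up most of every bar, and the siLarp1 and siCtl bars overlapped in height at each time.

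The mapping quality showed how far alignments could be told apart from other placements. It runs from 0, where another placement scores as well, to 60. Of the pseudogene alignments 83.2% had quality 0, against 12.6% of the alignments to protein_coding transcripts outside the mitochondria. The difference within a library was 69.9 percentage points on average and was positive in 10 of 10 libraries (exact sign-flip permutation test, two-sided, p = 0.00195, the smallest it can give, n = 10 libraries). Without the chromosome 1 cluster it was 25.01 points (p = 0.00195, exact sign-flip permutation test), with values from 19.4 to 30.4. Pooled over transcripts, quality 0 was less frequent at lower identity to the parent. Outside the cluster it was found in 48.3% of 1600 alignments to transcripts that differed from the parent at no more than 0.5% of the aligned bases, in 33.0% of 321 at up to 1%, in 17.5% of 194 at up to 5%, and in 3.63% of 193 at up to 20%. A quality of 10 or more was reached by 4.50%, 9.03%, 17.5% and 56.5% of these alignments. The transcripts closest to their parents varied widely among themselves, so the order need not hold for single transcripts. Quality 0 made up 95.3%, 95.8% and 97.6% on Gm10240, Gm13370 and Gm10163, which copy the same gene. It made up 24.1% on Gm7336 and 11.7% on Mrpl23-ps1.

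The families of the annotation differed in the same measure. The unprocessed_pseudogene family (26 transcripts, 6661 alignments) had quality 0 in 99.1%, and nearly all of its alignments were those of the cluster. The processed_pseudogene family (234 transcripts, 2252 alignments) had 40.4% at quality 0 and another 50.1% between 1 and 9. The other families were small, with 63 alignments to polymorphic_pseudogene, 26 to pseudogene, 18 to transcribed_processed_pseudogene, 12 to transcribed_unprocessed_pseudogene, 11 to transcribed_unitary_pseudogene and 4 to unitary_pseudogene transcripts. All 15 alignments to both unitary families had a quality of at least 10.

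**Figure D2:**
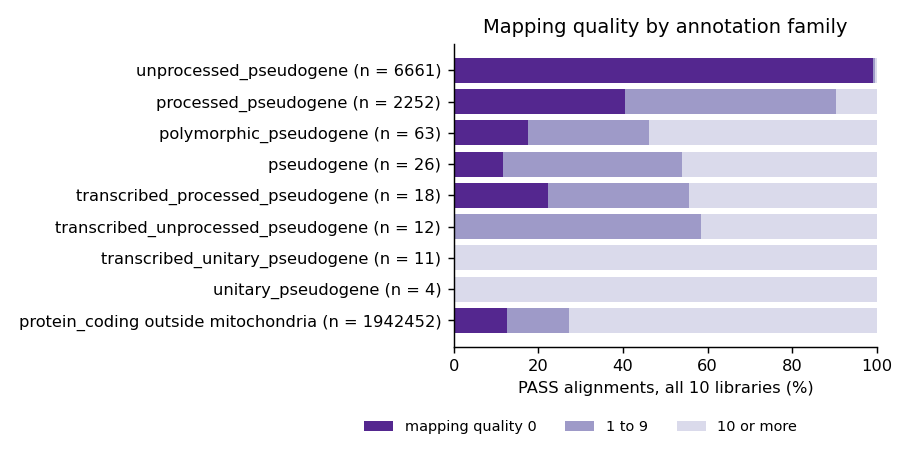
Horizontal bars give the percentage of PASS alignments, summed over the 10 libraries, with mapping quality 0, 1 to 9, and 10 or more for each pseudogene family and for protein_coding transcripts outside the mitochondria (n = alignments). Quality 0 made up 99.1% of the unprocessed and 40.4% of the processed pseudogene alignments.

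In the cluster 6597 of 6615 alignments had quality 0. The quality 0 alignments to the mitochondrial parents were nearly as many as those to the copies. Gm28437 had 2594 and mt-Co3 2598, Gm10925 had 2333 and mt-Atp6 2348, Gm29216 had 826 and mt-Co1 854, and Gm28661 had 674 and mt-Co2 632. Gm28439 and mt-Nd4 had 90 and 86, and Gm28438 and mt-Nd3 had 70 and 70. The share on the copy was therefore 50.0% for Gm28437, 49.8% for Gm10925, 49.2% for Gm29216 and 51.6% for Gm28661. Over libraries these 4 shares ranged from 44.7% to 56.9%. Their means departed from an even division by -1.03 ± 2.83, -0.27 ± 1.95, -0.65 ± 2.64 and 1.69 ± 3.10 percentage points (SD, n = 10 libraries), none of which passed an exact sign-flip permutation test (adjusted p = 0.555, 0.674, 0.622 and 0.469 over 4 tests). The siLarp1 and siCtl libraries differed in these shares by at most 0.73 points over both times (adjusted p = 1.0, exact stratified permutation test, 4 tests). Alignments of quality 0 score as well elsewhere, so these tests describe how the aligner placed them. They cannot show whether the copies were transcribed or whether siLarp1 changed that.

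**Figure D3:**
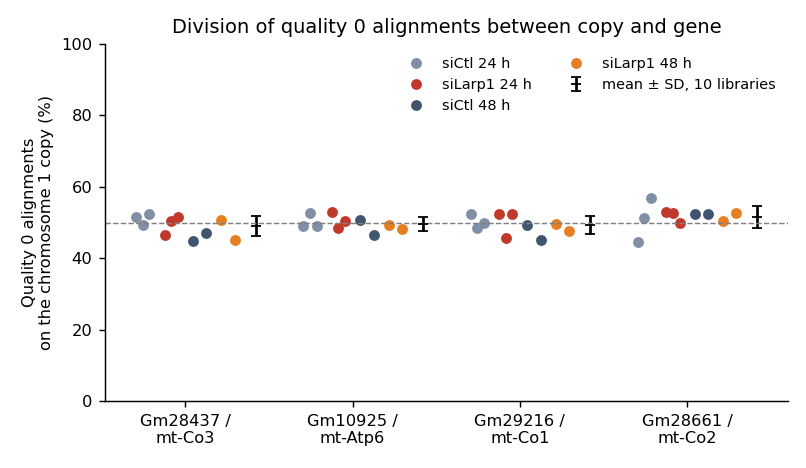
Each point is 1 library, and the vertical axis gives the percentage of the quality 0 alignments to a mitochondrial gene and its chromosome 1 copy that were placed on the copy (horizontal axis, copy and gene), coloured by treatment and time, with the mean and SD over 10 libraries in black. All points lay between 44.7% and 56.9%, around the dashed line at 50%.

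The alignments with a quality above 0 were found only on the mitochondrial side, apart from 18 in the cluster. For 3 of the 4 leading parents they ended further along the gene than the quality 0 ones. On mt-Co3, alignments above quality 0 had a median last base of 784, the last of the gene, and those of quality 0 ended at base 781. The alignments to Gm28437 also ended at 781. The same held for mt-Atp6 (681 against 675, with Gm10925 at 675) and for mt-Co2 (684 against 679, with Gm28661 at 679). On mt-Co1 both sets had a median last base of 1545. Gm29216 begins at base 1063 of mt-Co1, and 98.8% of its alignments came within 20 bases of its end. Of the alignments that lay wholly inside this stretch, 827 were on Gm29216 and 883 on mt-Co1, so that 48.4% were on the copy, between 44.5% and 52.4% in each library. Of all mt-Co1 and Gm29216 alignments, 3.98% were on the copy.

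Reads on the copies also carried alignments to other mitochondrial genes. Of the 2335 reads on Gm10925, 1723 (73.8%) also had an alignment to mt-Atp8, the gene that shares a transcript with mt-Atp6. Of the reads on mt-Atp6 itself 79.6% did. The reference annotation lists no gene between Gm10925 and Gm28661. Of the 90 reads on Gm28439, 81 also aligned to mt-Nd4l, which shares a transcript with mt-Nd4. For all pseudogene transcripts 22.5% of the reads had a further alignment to another transcript. Of the reads on protein_coding transcripts outside the mitochondria, 0.594% had a further alignment of any kind. For the pseudogene transcripts outside the cluster the share was 4.77%. It included all 40 reads on Gm12421, each of which also aligned to Rps6.

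Tails of the cluster were shorter than those of coding transcripts. The median tail over all pseudogene alignments was 69.5 nt, against 101.7 nt for protein_coding transcripts. Within libraries the difference was -31.9 nt and negative in 10 of 10 (exact sign-flip permutation test, p = 0.00195, adjusted p = 0.00326 over 15 tests). It was carried by the cluster, whose medians ranged from 64.5 to 68.4 nt and lay 35.0 nt under the coding median. The transcripts outside the cluster had medians from 92.8 to 107.6 nt, which was 1.17 nt under the coding median (SD 5.31, n = 10 libraries, exact sign-flip permutation test p = 0.504). The mitochondrial coding genes together had group means between 59.5 and 61.2 nt. The tail class of about 60 nt (30 to 90 nt) held 87.5% of the unprocessed and 40.5% of the processed pseudogene alignments, and 38.6% of the coding ones.

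Copy and parent were then compared pair by pair. The 10 libraries had a median tail of 67.6 nt on Gm10925 (65.3 to 71.7) and 67.7 nt on mt-Atp6 (64.9 to 70.3), and 53.6 nt on Gm28661 (50.7 to 56.5) and 53.5 nt on mt-Co2 (51.1 to 55.0). Among the 4 mitochondrial pairs this gene and its copy had the lowest medians. Gm29216 had 65.1 nt against 66.4 nt on mt-Co1. Gm28437 had 68.0 nt against 69.8 nt on mt-Co3, and this pair differed by -1.38 ± 0.99 nt (SD, lower in 9 of 10 libraries, exact sign-flip permutation test, adjusted p = 0.0352 over 6 pairs). Gm7336 had 105.8 nt (88.0 to 116.3) against 104.2 nt on Gapdh (99.7 to 111.4), and Gm10240 had 102.8 nt against 98.7 nt on Rpl21. No other pair than that of Gm28437 passed the test (adjusted p from 0.371 to 0.982).

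Alignments with tails under 30 nt were more frequent on Gm28661 than on mt-Co2, in 10 of 10 libraries. The difference was 2.70 percentage points (exact sign-flip permutation test, adjusted p = 0.0117 over 6 pairs). Pooled, 28 of 674 quality 0 alignments to Gm28661 (4.15%) and 28 of 632 to mt-Co2 (4.43%) had such tails, against 161 of 13445 (1.198%) of the mt-Co2 alignments above quality 0. Among quality 0 alignments alone, copy and gene differed by -0.25 ± 3.98 points (SD, n = 10 libraries, exact sign-flip permutation test, p = 0.850). For Gm28437 and mt-Co3 the difference in median tail among quality 0 alignments was -0.42 ± 0.92 nt (p = 0.174, exact sign-flip permutation test). Such alignments could have been placed on either transcript. Comparisons among them therefore cannot tell tails of the copy from tails of the gene.

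**Figure D4:**
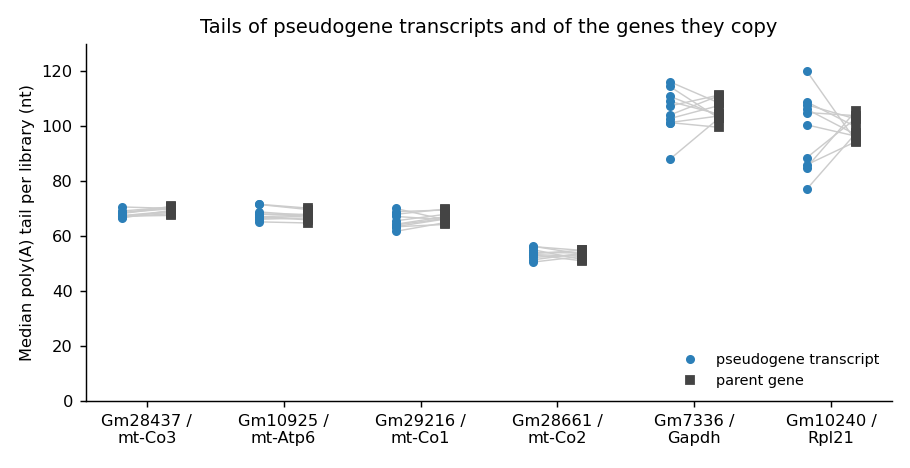
Circles give the median poly(A) tail in nt (vertical axis) on a pseudogene transcript and squares that on its parent gene, with a line joining the values of 1 library, for the 6 pairs with at least 10 alignments to the pseudogene in every library. The 4 mitochondrial pairs lay between 50.7 and 71.7 nt, and the Gapdh and Rpl21 pairs between 77.1 and 120.3 nt.

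How siLarp1 affected these transcripts was asked first for their abundance. The pseudogene transcripts took 0.483%, 0.447% and 0.440% of the PASS alignments outside the mitochondrial genome in siCtl and 0.435%, 0.492% and 0.440% in siLarp1 libraries at 24 h. At 48 h they took 0.437% and 0.379% in siCtl and 0.414% and 0.399% in siLarp1 libraries. The groups overlapped at both times, and the difference was -0.001 percentage points over both (exact stratified permutation test, p = 0.9, adjusted p = 0.931 over 30 tests). The cluster held 73.1% of all pseudogene alignments, and 99.7% of its alignments had quality 0. Its abundance therefore cannot be told apart from that of the mitochondrial genes it copies. This also holds below for the unprocessed family, Gm28437 and Gm10925, in abundance and in the share on the copy. With 3 against 3 libraries the exact test cannot go below 0.1, with 2 against 2 not below 0.333, and over both times not below 0.0167.

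By family, unprocessed pseudogenes had 3408 ± 289 RPM in siCtl and 3473 ± 179 in siLarp1 libraries at 24 h (SD, n = 3), and 2856 ± 402 and 2842 ± 379 at 48 h (SD, n = 2). Processed pseudogenes had 1096 ± 57.7 and 1007 ± 148 RPM at 24 h, and 1179 ± 29.5 and 1148 ± 279 at 48 h. All other families together had 58.3, 57.7 and 72.8 RPM in siCtl and 74.7, 89.1 and 69.6 in siLarp1 libraries at 24 h, and 35.3 and 55.7 against 73.6 and 66.0 at 48 h. The last groups did not overlap at 48 h and did at 24 h, with 4 to 31 alignments per library, and the difference of 19.6 RPM over both times did not pass after adjustment (exact stratified permutation test, p = 0.0333, adjusted p = 0.2 over 12 tests).

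The share of alignments on the copy was then compared between siLarp1 and siCtl. Of the Gm28437 and mt-Co3 alignments 23.7% ± 1.15 (SD, n = 3) were on the copy in siCtl and 23.0% ± 1.60 in siLarp1 libraries at 24 h. At 48 h the shares were 19.7% and 20.3% in siCtl and 23.0% and 22.7% in siLarp1 libraries, which did not overlap. For Gm10925 the share was 14.5% ± 0.93 and 14.7% ± 0.64 at 24 h, and for Gm7336 against Gapdh it was 2.83% ± 0.13 and 2.49% ± 0.45. Mrpl23-ps1 took 69.1% of the alignments to it and Mrpl23 together, with libraries from 35.3% to 79.2%. It had no mismatch to Mrpl23 over 540 bases, and 13 of its 248 alignments had a quality of at least 10. Its alignments had a median last base of 545 of 580, near base 541 where the match to Mrpl23 stops. The share therefore does not tell which of them was transcribed. None of the 15 transcripts passed the exact stratified permutation test of siLarp1 against siCtl over both times (adjusted p from 0.643 to 0.983).

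Each of the 15 transcripts with at least 30 alignments was also tested within a fit over all transcripts outside the mitochondrial genome. In abundance 0 of the 15 passed an adjusted p of 0.05 at either time with limma, where 0.031% (24 h) and 0.0155% (48 h) of the 6456 transcripts tested did so, and 0 of 15 had an unadjusted p under 0.05 (3.56% of all higher and 2.11% lower at 24 h, 2.82% and 2.54% at 48 h). In mean log2 tail 0 of 15 passed (0.0853% of 5860 transcripts at 24 h and 0% at 48 h). At an unadjusted p under 0.05, 1 was higher and 0 lower at 24 h (2.92% and 3.14% of all), and 0 higher and 1 lower at 48 h (3.45% and 2.76% of all). In the share of tails under 30 nt 0 of 15 passed (0.0683% and 0.41% of all). Before adjustment 0 were higher and 0 lower at 24 h at p under 0.05 (2.99% and 1.5% of all), and 1 was higher and 0 lower at 48 h (5.02% and 2.9% of all). The median log2 change in abundance over the 15 was 0.01 at 24 h and -0.03 at 48 h, against 0.01 and 0.04 over all transcripts. The difference between the times was also tested, and 0 of 15 passed in any of the 3 measures, where 0%, 0.273% and 0% of all transcripts passed in tail, short tails and abundance. At an unadjusted p under 0.05, 1 of 15 was higher and 0 lower in tail (2.59% and 2.53% of all), 1 higher and 0 lower in short tails (3.46% and 2.05%), and 0 in abundance (2.23% and 2.34%).

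Gm28437 had 1629, 1305 and 1249 RPM in siCtl and 1319, 1433 and 1424 in siLarp1 libraries at 24 h, and 979 and 857 against 1123 and 916 at 48 h. The groups overlapped at both times, and the log2 fold change was 0.04 ± 0.10 (SE) at 24 h and 0.18 ± 0.16 at 48 h (limma voom, adjusted p = 0.997 and 0.951). Gm10925 had a log2 fold change of 0.06 ± 0.10 at 24 h and -0.03 ± 0.16 at 48 h (limma voom, adjusted p = 0.984 and 0.987). Gm7336 had 350, 349 and 319 RPM in siCtl and 315, 364 and 234 in siLarp1 libraries at 24 h. Its log2 fold change of -0.18 ± 0.17 had the smallest p of the 15 in abundance at that time (adjusted p = 0.951), followed by that of Gm21596 with -0.46 ± 0.47 (adjusted p = 0.960). Its value turned to 0.02 without siLarp1 library 22. At 48 h the smallest p in abundance were those of Gm13370 (-0.61 ± 0.35) and Mrpl23-ps1 (0.60 ± 0.38), both with an adjusted p of 0.899 in limma. For the difference between the times they were those of Gm13370 (-0.62 ± 0.44) and Gm21596 (0.92 ± 0.76, adjusted p = 0.976 for both).

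In tails the member with the smallest p at 24 h was Mrpl23-ps1. Its medians were 82.2, 82.1 and 73.4 nt in siCtl and 93.3, 108.9 and 118.9 nt in siLarp1 libraries. The groups did not overlap, but the transcript was picked by its p, and the share of all transcripts without overlap was not counted. The change of 0.25 ± 0.13 in mean log2 tail (SE) did not pass (limma, adjusted p = 0.823), and at 48 h it was -0.06 ± 0.19. Gm10240 followed at 24 h with -0.25 ± 0.14 (adjusted p = 0.868). At 48 h the smallest p were those of Gm28439 (-0.83 ± 0.38, adjusted p = 0.752) and Gm4540, a copy of Rbis (0.74 ± 0.44, adjusted p = 0.873). Gm28439 rested on 3 and 10 alignments in siCtl and 6 and 1 in siLarp1 libraries at 48 h. Its share of tails under 30 nt was 33.3% and 0% in siCtl and 66.7% and 100% in siLarp1 libraries, which is 1 and 0 against 4 and 1 alignments, and the change of 63.7 ± 16.2 percentage points did not pass (limma, adjusted p = 0.295). Gm28438 followed with -20.0 ± 9.95 points (adjusted p = 0.726), and at 24 h the smallest p in this share were those of Gm10163 (5.26 ± 2.91) and Gm10240 (2.33 ± 1.31), both with an adjusted p of 1.0. For the difference between the times the smallest p in tail were those of Gm10240 (0.50 ± 0.24) and Gm4540 (1.01 ± 0.52, limma adjusted p = 0.930 for both). In short tails they were those of Gm28439 (63.3 ± 18.8 points, adjusted p = 0.736) and Gm3272 (16.99 ± 9.38 points, adjusted p = 0.885), whose best coding match is Gm3839.

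Summed over the transcripts, short tails were compared for the cluster and for all other transcripts. In the cluster 1.48%, 1.59% and 1.33% of the alignments had tails under 30 nt in siCtl and 1.22%, 1.22% and 1.71% in siLarp1 libraries at 24 h. At 48 h the shares were 1.69% and 2.41% in siCtl and 2.78% and 3.22% in siLarp1 libraries. The groups overlapped at 24 h and not at 48 h (difference over both times 0.43 percentage points, exact stratified permutation test, p = 0.233).

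Outside the cluster the shares were 2.46%, 1.196% and 1.92% in siCtl and 4.35%, 2.91% and 5.26% in siLarp1 libraries at 24 h. At 48 h they were 2.82% and 2.23% in siCtl and 5.26% and 2.91% in siLarp1 libraries. Every siLarp1 library lay above every siCtl library of its time, which also held for protein_coding transcripts. At 48 h the nearest shares outside the cluster were 2.91% and 2.82%. Within this set, copies of ribosomal protein genes differed by 5.01 percentage points at 24 h and by -2.15 at 48 h. The ribosomal protein genes themselves had 1.87%, 1.69% and 1.85% in siCtl and 2.98%, 3.20% and 3.20% in siLarp1 libraries at 24 h. At 48 h they had 2.77% and 2.30% in siCtl and 4.57% and 4.22% in siLarp1 libraries. All other transcripts outside the cluster differed by 0.39 points at 24 h, where the groups overlapped (exact permutation test, p = 0.7), and by 4.05 at 48 h, where they did not (p = 0.333). For the whole set outside the cluster the difference was 2.31 percentage points at 24 h (exact permutation test, p = 0.1), 1.56 at 48 h (p = 0.333) and 1.94 over both (p = 0.0167), each the smallest p that the design allows. It did not pass after adjustment over 30 tests (exact stratified permutation test, adjusted p = 0.25). With a barcode confidence of at least 0.9 the difference over both times was 1.14 points, and among alignments of mapping quality 10 or more it was 0.72. These shares rested on 4 to 10 short-tailed alignments per library, among 115 to 522. The exact 95% binomial intervals ran from 0.39% to 2.77% for the lowest library and from 2.44% to 9.76% for the highest, and cover counting error only. The protein_coding transcripts had means of 2.28% ± 0.15 in siCtl and 2.86% ± 0.35 in siLarp1 libraries at 24 h (SD). Their means at 48 h were 2.92% ± 0.09 and 3.83% ± 0.60. By library they ran from 2.17% to 2.45% in siCtl and from 2.64% to 3.26% in siLarp1 at 24 h. At 48 h they ran from 2.86% to 2.98% in siCtl and from 3.41% to 4.25% in siLarp1. Relative to them the log2 odds of a short tail on the transcripts outside the cluster differed by 0.56 over both times, and the groups overlapped at each time (exact stratified permutation test, p = 0.1, adjusted p = 0.571). Whether the change differed between the cluster and the other transcripts was not tested. For all pseudogene transcripts together the difference was 0.78 points over both times (p = 0.0333, adjusted p = 0.333, exact stratified permutation test).

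**Figure D5:**
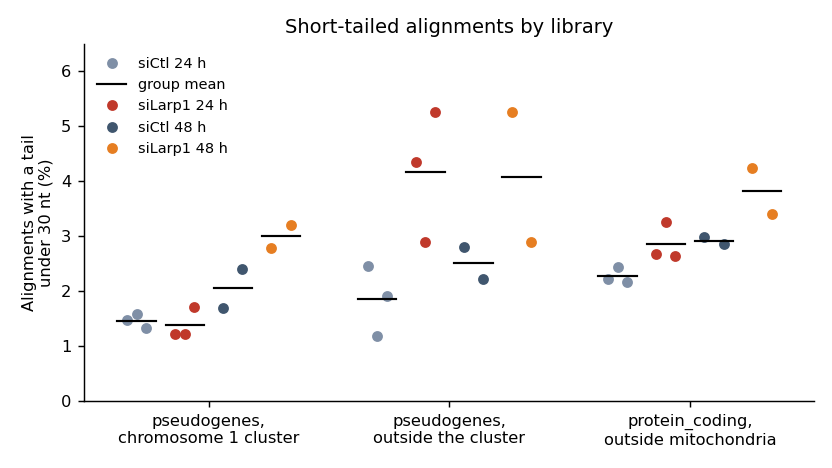
Points give the percentage of PASS alignments with a tail under 30 nt (vertical axis) in each library and lines the group means, for the chromosome 1 cluster, for all other pseudogene transcripts and for protein_coding transcripts (horizontal axis), coloured by treatment and time. Outside the cluster the siLarp1 points, from 2.91% to 5.26%, lay above the siCtl points of the same time, which ran from 1.196% to 2.82%. The siLarp1 points of protein_coding transcripts also lay above the siCtl points of the same time.

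Grouped by what they copy, 185 transcripts with 1022 alignments were copies of 54 ribosomal protein genes under other symbols. Their median tail was 96.2 nt, and 62.3% of their alignments had quality 0. Quality 0 made up 62.5%, 62.0% and 57.2% in siCtl and 66.7%, 70.6% and 64.3% in siLarp1 libraries at 24 h, and 59.7% and 60% against 68.3% and 67.7% at 48 h. The groups did not overlap at either time, and the difference of 7.39 percentage points over both did not pass after adjustment (exact stratified permutation test, p = 0.0167, adjusted p = 0.25 over 30 tests). Within libraries their tails were 5.83 nt shorter than those of coding transcripts, in 10 of 10 libraries (SD 3.19, exact sign-flip permutation test, adjusted p = 0.00326 over 15 tests). The ribosomal protein genes themselves had mean medians of 97.2 nt (siCtl) and 93.7 nt (siLarp1) at 24 h and of 90.8 nt in both at 48 h. Coding transcripts had 102.8, 102.5, 97.7 and 100.3 nt in the same order. Glycolysis parents (Gapdh) accounted for 3 transcripts with 699 alignments, chromatin and nuclear parents for 2 transcripts with 83, chaperone and proline isomerase parents for 3 with 5, nuclear-encoded mitochondrial protein parents for 3 with 4 and cytoskeleton parents for 1 with 1. The list of other TOP parents held no member. Including the cluster, 10 transcripts copied genes of the mitochondrial genome and had 6625 alignments. Another 49 transcripts with 484 alignments copied other coding genes, and 35 transcripts with 124 alignments had no coding match. The last had a median tail of 114.3 nt, and 77 of their 124 alignments had a quality of at least 10.

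Few alignments were placed with a higher quality. Over all pseudogene transcripts 321 alignments on 111 transcripts had a quality of at least 10, and 89 had the full quality of 60. None was in the cluster. They had a median tail of 105.4 nt, and 8 of them (2.49%) had tails under 30 nt. The libraries held 130 to 189 RPM of them in siCtl and 114 to 156 in siLarp1 libraries at 24 h, and 145 to 185 and 135 to 182 at 48 h (difference over both times -18.7 RPM, exact stratified permutation test, p = 0.283). On 73 transcripts every alignment was of this kind. Gm7336 had 56 such alignments of 697 and Gm12421 had 39 of 40. All 40 reads on Gm12421 also aligned to Rps6, so a higher quality did not mean a single alignment per read. The H2-Bl transcript with most reads, a polymorphic pseudogene of the class I histocompatibility family on chromosome 17, had 18 of 19 in 8 libraries, with a median tail of 124.6 nt. Thap6, annotated as a transcribed unitary pseudogene on chromosome 5, had 9 of 9 in 6 libraries and a median tail of 142.5 nt. Gm14057 led the transcribed_processed family with 5 of 5, Gm50492 led the unitary family with 2 of 2, Zfp125 led the transcribed_unprocessed family with 3 of 8, and Gm3608 led the pseudogene family with 0 of 10. With fewer than 30 alignments each, single members of the small families were not tested for a difference between siLarp1 and siCtl.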

How the data were processed

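Per the labels and the study's methods, the authors barcoded and pooled the libraries, called bases with Guppy, aligned reads with minimap2 2.20 to mouse transcripts of build mm10 (a GENCODE annotation) and estimated each poly(A) tail in nt with Nanopolish. The deposited table held 2652217 alignments of 2577272 reads, 1 line each, unfiltered, with the tail, a quality tag, the mapping quality as a score and the barcode confidence as a fraction. Libraries were assigned to groups by the table's condition column, where a condition without a time was taken as 24 h because the others name 48. Which labelled replicate each library number is was not stated. The study's methods call the barcoded samples biological replicates. The members and gene lists were chosen with earlier results of these data known. The leading transcripts, the top of each family and, per test, the 2 with smallest p were named. The mt-Co1 stretch, the quality 0 comparisons and the cluster were chosen after their values were seen.

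PASS alignments to annotated transcripts were kept. Shares were compared by exact permutation over libraries (120 arrangements over both times) and Benjamini-Hochberg adjustment, and single transcripts with limma 3.58.1 in R 4.3.3 (all 10 libraries, weights by reads, at least 30 reads and reads in 2 libraries of each group for tails; voom for abundance), checked on simulated data. Tails entered as log2(tail + 1), and odds with 0.5 added. Parents were found with BLAST+ 2.17.0 among transcripts of GENCODE M21 (GRCm38, as mm10), which held 278 of the 291 transcripts with identical coordinates. Alternatives were tried on mapping quality, barcode confidence, quality tags, members, scaling, minimum reads and single libraries. In abundance, deviations of same-numbered libraries from group means correlated at 0.01, 0.13 and 0.13 at 24 h. In tails, the libraries numbered 22 were alike. On mitochondrial coding genes their 60-nt share was 86.6% (siCtl) and 86.8% (siLarp1). The other libraries of 24 h had 92.6% to 94.4%. The cause of this likeness was not tested.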

Additional observations from a re-analysis of the deposited data

Results flagged for a closer look

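For copies of ribosomal protein genes under other symbols the effect of siLarp1 at 48 h was set against that at 24 h by exact permutation, and 3 of 30 such comparisons had an unadjusted p under 0.05. The difference in the share of tails under 30 nt was 5.01 percentage points at 24 h and -2.15 at 48 h, so that the effects differed by -7.17 points (exact permutation p = 0.0333, adjusted p = 0.333). The median tail changed by -4.18 nt at 24 h and by 8.63 nt at 48 h, a difference of 12.8 nt (exact permutation p = 0.0167, adjusted p = 0.25). The log2 odds of a short tail against coding transcripts differed by -4.75 between the times (exact permutation p = 0.0167, adjusted p = 0.25). None passed after adjustment. The shares rested on few alignments. At 24 h the siCtl libraries had 0 of 128, 0 of 184 and 5 of 229 short tails and the siLarp1 libraries 3 of 42, 2 of 68 and 6 of 84. At 48 h the siCtl libraries had 3 of 67 and 3 of 95, and the siLarp1 libraries 2 of 60 and 0 of 65. A limit of 3 counts on a count of 0 is 2.34% of 128 alignments and 4.62% of 65, and the exact 95% binomial upper bounds are 2.84% and 5.52%, for counting error only.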

How the results depend on the processing

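Of 740 values recomputed for 42 results, 659 kept their direction and their side of the threshold. Differences are siLarp1 minus siCtl, in percentage points for shares, nt for tails and log2 for odds, and the cause of each change was not tested. The difference in tails under 30 nt over both times lost an unadjusted exact p under 0.05 at mapping quality 10 or more (0.72), barcode confidence of at least 0.9 (0.78), all quality tags (1.56), with copies named Rpl or Rps (1.58) and in the cluster alone (0.43, and -0.081 at 24 h). Outside the cluster it did so at mapping quality 10 (0.72), barcode confidence 0.9 (1.14) and without ribosomal protein copies (2.22). Permuted within library numbers as a replicate block, values stayed at 0.78 and 1.94 with p = 0.0625, the smallest exact p the block allows. The numbers were not treated as pairs in the main tests, since no label states a pairing. Abundance correlations of same-numbered libraries were 0.01 to 0.13, which does not exclude pairs in tails. The block called 0 of 15 transcripts.

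Other directions turned. At mapping quality 10 the 60-nt share over both times was 5.0, the odds at 48 h -0.32, and the tail against coding transcripts 1.04 nt, with the short-tail share at -0.21. All tags gave -0.32 nt over both times, odds of -0.18 at 24 h and a short-tail share of 0.83 against coding. Reads with 1 alignment gave -0.089 nt, read shares of 0.0040 at 48 h and 0.00060 over both, and odds of -0.27 at 48 h and -0.081 over both. With Rpl and Rps names the tail was -0.17 nt, read shares 0.015 at 24 h and 0.0042 over both, quality 0 shares -0.60, -0.97 and -0.79 (24 h, 48 h, both), and short tails 0.47 against coding. Without the top transcript quality 0 was -0.67 at 48 h. In processed pseudogenes the 60-nt share was -0.57 at 24 h, quality 0 -0.80, -0.070 and -0.44, and the tail -1.49 nt and short tails 0.29 against coding. Without the cluster these were -0.48, -0.47 and -0.48, -1.17 nt and 0.24. The cluster alone gave read shares of 0.0069 and 0.0033 and odds of -0.36 and -0.10 (24 h, both). Each transcript counted once gave -3.51 for the 60-nt share and 4.70 nt at 24 h.

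Leaving out single libraries, differences over both times ranged from 0.65 to 0.88 (short tails), 1.35 to 2.53 (outside the cluster), -0.47 to 0.90 nt (tail), -0.016 to 0.013 (read share) and -0.89 to 2.10 (quality 0). Those at 24 h ranged from -1.06 to 4.97 (60-nt share), -0.019 to 0.012 (read share), -0.15 to 0.32 (odds) and -0.33 to 0.020 (Gm7336 abundance), and at 48 h from -0.031 to 0.028 (read share) and -2.93 to 3.06 (quality 0). The short-tail p over both times passed 0.05 no longer without siCtl 21 or 22 or siLarp1 22, and that outside the cluster without any 1 of the 5 siCtl libraries. Calls of short tails at 48 h ranged from 0 to 1, and Gm28438 was called without siCtl 24 (-33.3 points, limma adjusted p = 0.0460), where siCtl at 48 h is 1 library with 2 short tails of 6, assumed to vary like the other groups. A fit on the 48 h libraries alone also gave 1 call. Depth limits the small families and every share resting on fewer than 10 short tails.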
